A study of Homo sapiens with 6 samples.

Results

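The genes described here carry out N-glycosylation and the quality control of glycoproteins in the endoplasmic reticulum (ER). They were 39 genes chosen by symbol, with earlier results of these data known, of 30327 genes in the count table. All 39 were found in both the table of counts and the table of FPKM values. They comprised 3 glucosidase genes, 5 genes of lectin chaperones and folding sensors, 4 genes of ER mannosidases and EDEM proteins, 11 genes of the oligosaccharyltransferase (OST), 12 genes of lipid-linked oligosaccharide assembly, and 4 genes that supply sugars and dolichol. After GRB2 siRNA, GANAB, which encodes the catalytic subunit of glucosidase II, rose 1.91-fold, whereas PRKCSH, its partner subunit, had a log2 fold change of −0.03 and was not called. Among the other 38 genes, 10 rose by at most 1.31-fold, DOLK and DAD1 fell, and 26 did not pass the test. Over all tested genes, 9.96% passed it as higher and 10.5% as lower.

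N-glycosylation begins on the lipid dolichol, where the ALG enzymes build an oligosaccharide sugar by sugar across the ER membrane. The OST moves this oligosaccharide onto asparagine residues of proteins entering the ER, and the glucosidases then trim its glucose residues so that the lectins calnexin and calreticulin can hold the protein while it folds. Proteins that stay unfolded have glucose put back by the UGGT sensors or mannose removed by mannosidases, and the latter are passed to degradation. Receptors such as HER2 and the other ErbB proteins are glycoproteins made by this route.

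The series measured messenger RNA by RNA-seq in SK-BR-3, an established human breast cancer cell line with amplified HER2. The 3 si_NC libraries came from cells given a nontargeting siRNA, and the 3 si_GRB2 libraries from cells given a single siRNA duplex against GRB2, an adaptor protein of receptor tyrosine kinases. Effects of losing GRB2 and effects of that siRNA on other transcripts cannot be told apart with a single duplex. The sample titles and genotype entries speak of GRB2 overexpression and the sample descriptions of si_GRB2, so the targeted gene was read first. Its normalised counts, scaled to a common library size (CPM), were 123.7, 129.4 and 125.6 in si_NC and 27.75, 28.12 and 29.56 in si_GRB2. GRB2 was thus lower in all 3 libraries labelled si_GRB2 (log2 fold change −2.15, SE 0.04, adjusted p = 3.87e-15, edgeR quasi-likelihood test), and the groups are named here from the descriptions. The libraries held 24810378 to 28532480 reads on genes. The labels do not say that the replicates came from separate cultures, so p-values measure only the spread between these libraries, which may be technical.

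Of 7 genes that mark SK-BR-3 as a HER2-amplified epithelial line, ERBB2, GRB7, KRT8, KRT18, KRT19 and EPCAM were detected in every library, and CDH1, which this line is known to lack, had 1 to 3 reads. Their summed level ranged from 17370 to 17750 CPM in si_NC and from 14520 to 15110 CPM in si_GRB2, with ERBB2 higher and the other 5 detected genes lower. Of 10 markers of blood, endothelial and fibroblast cells, PTPRC, PECAM1, DCN and LUM had 0 to 2 reads in each library. CD3E had 1 to 5 reads, and COL3A1 had 11 in si_NC replicate 1 and 0 to 2 in every other library. CD68 had 21 to 37 reads, VWF 23 to 49 and COL1A1 104 to 149. CDH5, an endothelial marker, had 729 to 825 reads in si_NC and 411 to 562 in si_GRB2. It fell by 0.61 on the log2 scale (adjusted p = 5.56e-06 by edgeR). The summed level of the 10 was 35.75 to 36.12 CPM in si_NC and 23.28 to 26.78 CPM in si_GRB2, most of it from CDH5. The part of these shifts in the results below was not tested. In bulk RNA, fewer cells that express a gene and less RNA per cell cannot be told apart.

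All 39 genes passed the filter on low counts and were tested among 15801 genes. A gene was called when its adjusted p was below 0.01, and it was counted as a differentially expressed gene (DEG) when it also changed by more than 1.5-fold. Of the 39 genes, 11 were called higher (28.2%) and 2 lower (5.13%), and 26 were not called. Over all tested genes, 9.96% were called higher and 10.5% lower, 20.5% in either direction. The median log2 fold change was 0.05 over the 39 genes and 0.00 over all tested genes, for which the 5th and 95th percentiles were −0.49 and 0.43. Because the 39 genes were chosen with earlier results of these data known, these shares and medians only describe them. Only GANAB was a DEG, and it was higher. Of all tested genes 2.52% were DEGs, 0.829% higher and 1.69% lower. In 17 of the 39 genes every si_GRB2 library lay above every si_NC library, and in 5 every si_GRB2 library lay below. These 22 genes make 56.4% of the 39. Over all tested genes the groups did not overlap in 42.3%, 21.1% with si_GRB2 higher and 21.2% with si_GRB2 lower. The 39 genes had 483 to 28122 reads in each library, whereas the tested genes also include some with few reads, such as CD68. Genes with few reads are harder to call, and the shares over all tested genes, here and below, were not matched for read level. When limma was run on the authors' FPKM values with 1 added, GANAB alone of the 39 was still called, and among genes with a mean FPKM of at least 1 GANAB, EDEM1, STT3B and OSTC were. The other calls among the 39 were lost in both fits. The log2 fold changes of the genes called higher kept their sign there, and some were larger (CALR 0.18, STT3B 0.22) and some smaller (EDEM1 0.37).

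**Figure D1:**
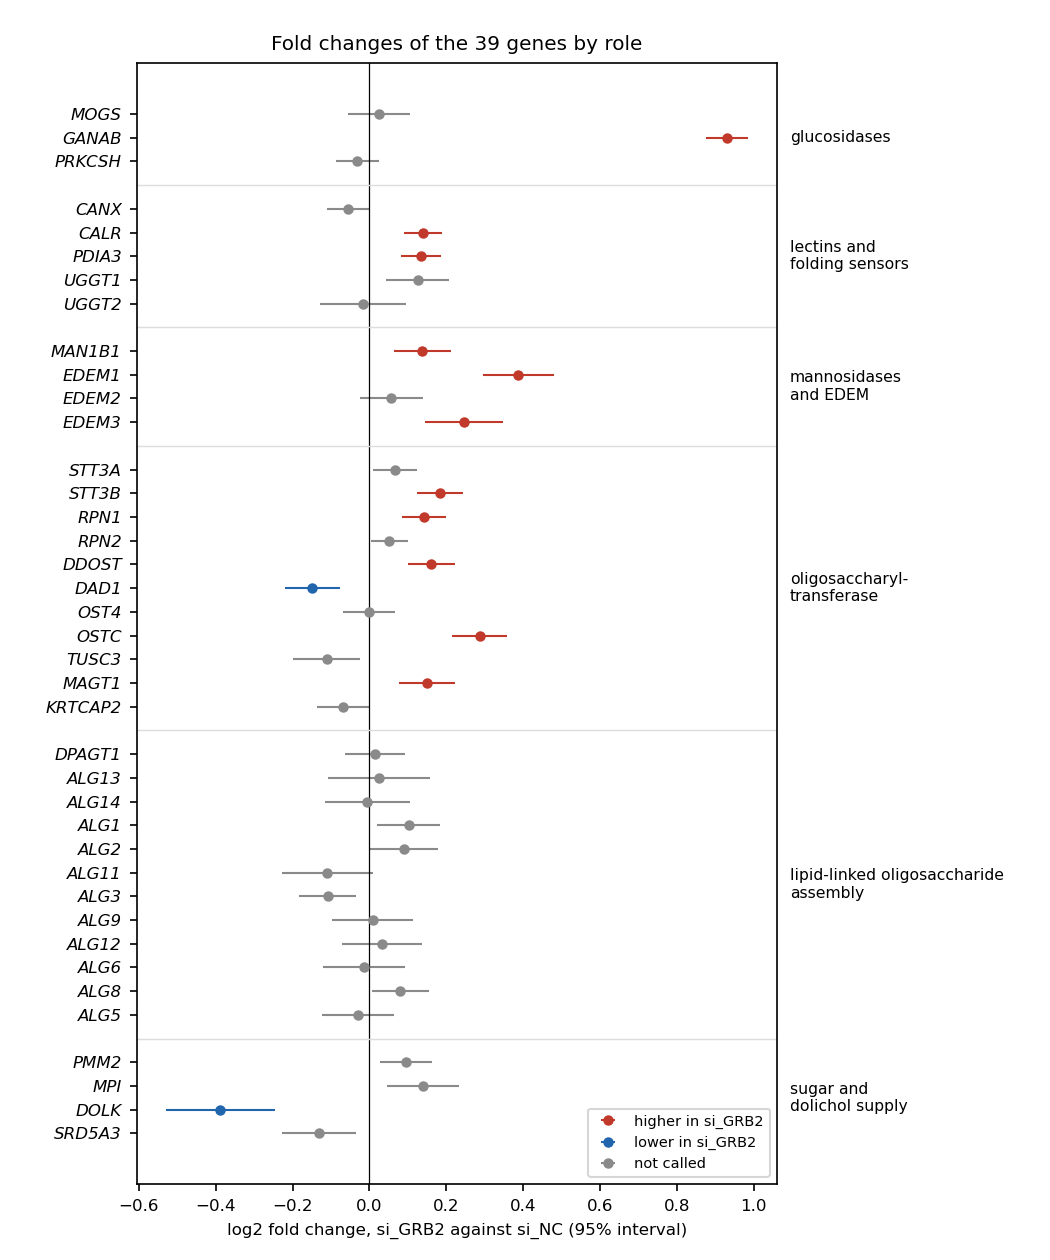
Each point gives the log2 fold change of a gene in si_GRB2 against si_NC from edgeR, with its 95% interval, and genes are grouped by role, with red for called higher, blue for called lower and grey for not called. GANAB stands at 0.93, EDEM1 at 0.39 is the next highest, DOLK at −0.39 is the lowest, and the 12 assembly genes all lie within 0.11 of 0.

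GANAB lies on chromosome 11 (GRCh38 chr11:62624826-62646726, minus strand). Its level was 205.4, 206.1 and 208.2 CPM in si_NC, against 393.6, 390.5 and 397.3 CPM in si_GRB2. The groups were far apart, and the spread within each group was under 4 CPM (SD 1.46 and 3.38, n = 3 each). The log2 fold change was 0.93 (SE 0.03, 95% interval 0.88 to 0.99, adjusted p = 4.2e-13 by edgeR). By p-value GANAB ranked 4 of 15801 genes and 1 among those that were higher. By size of fold it ranked 32 of the 131 DEGs that were higher. The counts behind it were large, 5257 to 5845 reads in si_NC and 9914 to 10735 in si_GRB2. No other counted gene shares exon bases with GANAB. Of the 8 nearest tested protein-coding genes around it, MTA2, a chromatin remodelling subunit, was called lower (log2 fold change −0.12), and none was called higher. The nearest of these on either side were B3GAT3 (0.14, adjusted p = 0.0166) and INTS5 (−0.09, adjusted p = 0.222), both by edgeR. Noncoding genes around GANAB were not read.

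The other glucosidase genes did not pass the test. PRKCSH, which encodes the beta subunit that keeps the glucosidase II catalytic subunit in the ER, was at 317.6, 324.7 and 316.1 CPM in si_NC. It was at 311.7, 316.6 and 309.5 CPM in si_GRB2, so the ranges overlapped. Its log2 fold change was −0.03, with a 95% interval of −0.09 to 0.02, which lies wholly below that of GANAB. MOGS, glucosidase I, which removes the outermost glucose before glucosidase II acts, had a log2 fold change of 0.02 and overlapping groups.

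Because both subunits of glucosidase II were counted in each library, their ratio could be read within libraries, where the scaling of a library cancels. Per length, GANAB had 0.665, 0.652 and 0.677 times the FPKM of PRKCSH in the si_NC libraries and 1.3, 1.27 and 1.32 times in the si_GRB2 libraries. By FPKM, GANAB was thus the lower of the 2 subunit transcripts in every si_NC library and the higher in every si_GRB2 library. The lengths behind the FPKM are not given in the sources used here. Annotated exon bases came to 5030 for GANAB and 5170 for PRKCSH, and transcripts made in these cells can be shorter. Which subunit is higher depends on such lengths, whereas the change in the ratio does not. On counts, the log2 ratio moved from −0.63 ± 0.03 to 0.33 ± 0.03 (SD, n = 3 each), a 1.95-fold difference. An exact two-sided permutation test of the 6 libraries gave p = 0.1, the smallest value that 3 against 3 allows, and 0.12 after adjustment over the 6 pairs compared. Any ratio whose groups do not overlap gets this p, whatever its size. How often the ratios of other gene pairs separate the groups was not computed, and single genes did so in 42.3% of those tested.

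**Figure D2:**
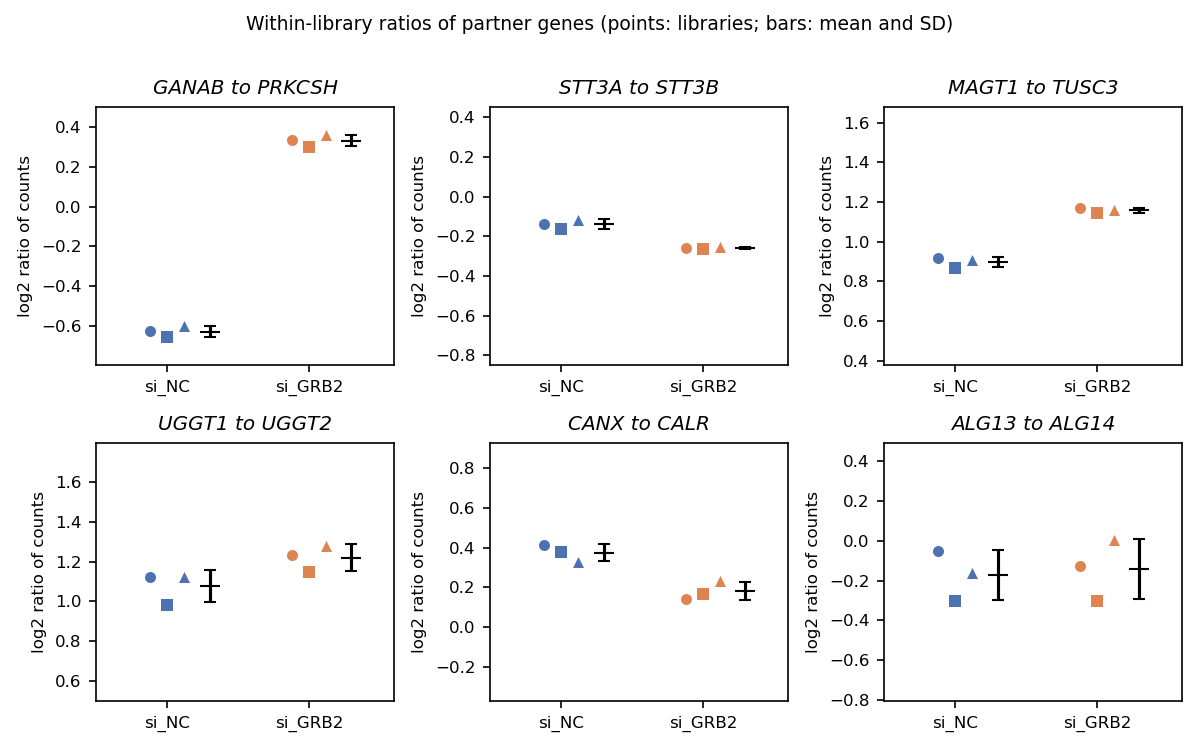
Each panel shows the log2 ratio of counts of 2 partner genes within a library (blue si_NC, orange si_GRB2; circle, square and triangle for replicates 1, 2 and 3), with the group mean and SD in black, and every panel spans the same height on the log2 scale. The GANAB to PRKCSH ratio crosses 0 from −0.63 to 0.33, the next 4 ratios shift by 0.12 to 0.26 without overlap, and the ALG13 to ALG14 ratios overlap. How often other gene pairs separate the groups was not computed.

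Of the 5 lectin and sensor genes, CALR and PDIA3 rose and CANX, UGGT1 and UGGT2 were not called, where 9.96% of all tested genes rose. CALR encodes calreticulin, the soluble lectin chaperone. Its level was 715.4, 738.2 and 735.8 CPM in si_NC and 802.5, 806.2 and 802.1 CPM in si_GRB2, a log2 fold change of 0.14 (SE 0.02, adjusted p = 0.000219 by edgeR). The 3 si_GRB2 libraries lay above all si_NC libraries and within 5 CPM of each other. PDIA3, the disulphide isomerase that works with both lectins, rose to a like degree, from 578.6 ± 14.65 to 634.9 ± 5.11 CPM (SD, n = 3 each), a log2 fold change of 0.13. Reads of 2 processed copies of PDIA3 came to 0.783% of its own. CANX encodes calnexin, the membrane-bound lectin. It was at 953.1, 960.6 and 924.9 CPM in si_NC and 886.3, 903.4 and 941.4 CPM in si_GRB2, with overlapping groups (log2 fold change −0.06, adjusted p = 0.126 by edgeR). The ratio of CANX to CALR was lower in all si_GRB2 libraries, by 0.20 on the log2 scale (exact two-sided permutation p = 0.1, adjusted 0.12, n = 3 each).

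UGGT1, the main sensor that puts glucose back on unfolded glycoproteins, was at 70.81 to 74.09 CPM in si_NC and 75.7 to 81.06 CPM in si_GRB2. These ranges did not overlap, but its log2 fold change of 0.13 had an adjusted p of 0.02 (edgeR) and was not called. UGGT2, its paralog, was at −0.02 with overlapping groups. The UGGT1 to UGGT2 ratio was higher by 0.14 on the log2 scale in si_GRB2 (exact two-sided permutation p = 0.1, adjusted 0.12, n = 3 each), and that ratio varied more between libraries of a group (SD 0.08 and 0.07) than the glucosidase II ratio did.

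The start regions of these genes were searched on both strands for 3 sequence elements through which ATF6 and XBP1, factors of the unfolded protein response, are known to act. The elements were ERSE (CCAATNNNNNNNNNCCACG), ERSE-II (ATTGGNCCACG) and UPRE (TGACGTGG), each of which holds the letters CCACG on 1 strand, so that matches can overlap. RefSeq start windows of 300 bases on GRCh38.p14, from 250 before to 50 after each start, covered 34 of the 39 genes. Those of MOGS, PDIA3, STT3B, RPN1 and TUSC3 were not analysed here. ERSE was found in CALR, CANX and ALG12, or 8.82% of the 34. It was found in 0.0916% of all 27305 genes with a window and in 0.15% of the tested genes among them. The lists of ER chaperones, unfolded protein response and ER-associated degradation read below had 29 genes with a window, and 6 of these (20.7%) held ERSE. ERSE was thus not particular to the genes described here. ERSE-II and UPRE were found in none of the 34 genes, against 0.0696% and 0.927% of all genes and 0.131% and 1.09% of tested genes. At shares this low, finding none among 34 genes tells little. The 250 bases before the start are shown 5′ to 3′ for GANAB, where no element was found, and for the 3 genes with an ERSE, whose letters are in capitals. CALR holds it on the opposite strand, so that it reads from the last capital back.

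The windows lie at chr11:62646614-62646863 (minus strand) for GANAB, chr19:12938359-12938608 (plus) for CALR, chr5:179698679-179698928 (plus) for CANX and chr22:49918439-49918688 (minus) for ALG12.
GANAB: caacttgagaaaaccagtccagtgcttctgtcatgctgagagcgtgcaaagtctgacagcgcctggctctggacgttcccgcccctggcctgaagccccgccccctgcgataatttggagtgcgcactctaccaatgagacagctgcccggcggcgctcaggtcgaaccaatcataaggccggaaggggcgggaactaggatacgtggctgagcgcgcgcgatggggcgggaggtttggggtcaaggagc
CALR: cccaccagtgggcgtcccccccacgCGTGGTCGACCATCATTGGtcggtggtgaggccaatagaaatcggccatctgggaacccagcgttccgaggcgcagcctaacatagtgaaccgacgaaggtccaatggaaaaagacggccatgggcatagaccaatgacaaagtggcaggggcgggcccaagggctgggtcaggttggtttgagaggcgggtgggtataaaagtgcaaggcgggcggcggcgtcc
CANX: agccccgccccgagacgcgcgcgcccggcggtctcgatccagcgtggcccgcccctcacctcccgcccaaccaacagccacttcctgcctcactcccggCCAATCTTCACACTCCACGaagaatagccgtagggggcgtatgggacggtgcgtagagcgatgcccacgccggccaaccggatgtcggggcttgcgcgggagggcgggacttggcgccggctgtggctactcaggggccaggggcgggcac
ALG12: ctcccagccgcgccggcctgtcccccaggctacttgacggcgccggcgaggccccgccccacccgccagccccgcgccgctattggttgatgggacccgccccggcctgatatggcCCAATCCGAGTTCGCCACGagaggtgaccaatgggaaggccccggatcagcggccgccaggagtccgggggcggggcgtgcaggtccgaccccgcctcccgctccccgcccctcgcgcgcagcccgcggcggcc
Of these 4 genes, GANAB and CALR rose and CANX and ALG12 were not called. Thus 1 of the 3 genes with an ERSE was called, beside 20.5% of all tested genes. The ERSE of ALG12 lies 134 to 116 bases before its start, and the same bases lie 80 to 62 before the start of CRELD2, which is transcribed away from ALG12 on the other strand. CRELD2, an ER chaperone gene, rose (log2 fold change 0.31, adjusted p = 3.39e-05 by edgeR), whereas ALG12 had a log2 fold change of 0.03. A match is a description of letters only.

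Among the mannosidase and EDEM genes, which mark glycoproteins for degradation by removing mannose, MAN1B1, EDEM1 and EDEM3 rose and EDEM2 was not called. Genes called higher made up 9.96% of all tested genes. EDEM1 was at 46.27, 43.75 and 43.49 CPM in si_NC and 56.01, 60.21 and 58.45 CPM in si_GRB2. All si_GRB2 libraries lay above all si_NC libraries, and the log2 fold change was 0.39 (SE 0.04, adjusted p = 4.37e-06 by edgeR), the largest of the 39 after GANAB. EDEM3 rose from 38.55 ± 0.92 to 45.75 ± 2.67 CPM (SD, n = 3 each), a log2 fold change of 0.25, with si_GRB2 replicate 3 at 48.82 CPM above the other two at 43.95 and 44.49. MAN1B1 went from 82.28 ± 1.93 to 90.49 ± 1.94 CPM (SD, n = 3 each), a log2 fold change of 0.14 with adjusted p = 0.007 by edgeR. It was no longer called when any of the 6 libraries was left out (adjusted p from 0.0133 to 0.0501). EDEM2 had a log2 fold change of 0.06 and overlapping groups. The median over these 4 genes was 0.19.

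The OST consists of a catalytic STT3 subunit and a shell of shared subunits. Of the 11 genes measured, STT3B, RPN1, DDOST, OSTC and MAGT1 rose, DAD1 fell and 5 were not called, with a median log2 fold change of 0.07. Of all tested genes, 9.96% were called higher and 10.5% lower. In 10 of the 11 the libraries of the groups did not overlap, 7 of them higher and 3 lower in si_GRB2, against 42.3% of all tested genes (21.1% higher, 21.2% lower). OST4 alone overlapped, with 128.1 CPM on average in both groups. OSTC, which belongs to the STT3A form that works beside the translocon, changed most. Its level was 98.81, 100.7 and 100.3 CPM in si_NC and 123.5, 117.6 and 124.9 CPM in si_GRB2, a log2 fold change of 0.29 (SE 0.03, adjusted p = 7.78e-06 by edgeR). The si_NC libraries were within 2 CPM of each other and the lowest si_GRB2 library lay well above them.

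STT3B, the catalytic subunit that glycosylates sites the other form skipped, was at 274.9, 282 and 265.8 CPM in si_NC and 308.3, 311.9 and 314.8 CPM in si_GRB2 (log2 fold change 0.18, adjusted p = 0.000108 by edgeR). STT3A, the catalytic subunit that acts during translation, had a log2 fold change of 0.07 and was not called (adjusted p = 0.0742 by edgeR), although its libraries did not overlap. The ratio of STT3A to STT3B was lower in si_GRB2 by 0.12 on the log2 scale, or 7.92% (exact two-sided permutation p = 0.1, adjusted 0.12, n = 3 each). MAGT1 and TUSC3 are alternative oxidoreductase subunits of the STT3B form. MAGT1 was at 92.86, 89.38 and 87.55 CPM in si_NC and 99.05, 99.21 and 101 CPM in si_GRB2, a log2 fold change of 0.15 (adjusted p = 0.00343 by edgeR). TUSC3 was at 49.12, 48.96 and 46.66 CPM in si_NC and 43.99, 44.86 and 45.11 CPM in si_GRB2, and its log2 fold change of −0.11 was not called (adjusted p = 0.0496 by edgeR). The MAGT1 to TUSC3 ratio was higher in every si_GRB2 library, by 0.26 on the log2 scale or 1.2-fold, with the same exact p of 0.1, adjusted 0.12. MAGT1 lost its call without si_NC replicate 2 or 3 or si_GRB2 replicate 2 or 3 (adjusted p from 0.0138 to 0.023, edgeR).

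The shared subunits went different ways. DDOST, a core subunit, rose from 214.2 ± 3.78 to 239.5 ± 5.32 CPM (SD, n = 3 each), a log2 fold change of 0.16. PINK1-AS, a noncoding gene on the same strand that shares 427 exon bases with it, held 39.6% as many reads and had a log2 fold change of 0.15. RPN1, ribophorin I, rose by 0.14 on the log2 scale, and RPN2, ribophorin II, had a log2 fold change of 0.05 and was not called. DAD1, a small subunit first known as a defender against cell death, was at 138.7, 138.1 and 137.2 CPM in si_NC and 122.7, 120.5 and 130.4 CPM in si_GRB2. It fell by 0.15 on the log2 scale (SE 0.03, adjusted p = 0.00316 by edgeR), with si_GRB2 replicate 3 closest to the controls. DAD1 was not called without si_NC replicate 2, si_GRB2 replicate 1 or si_GRB2 replicate 2 (adjusted p 0.0124, 0.0165 and 0.0284, edgeR). KRTCAP2, a subunit of the STT3A form, had a log2 fold change of −0.07 and was not called (adjusted p = 0.124 by edgeR).

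**Figure D3:**
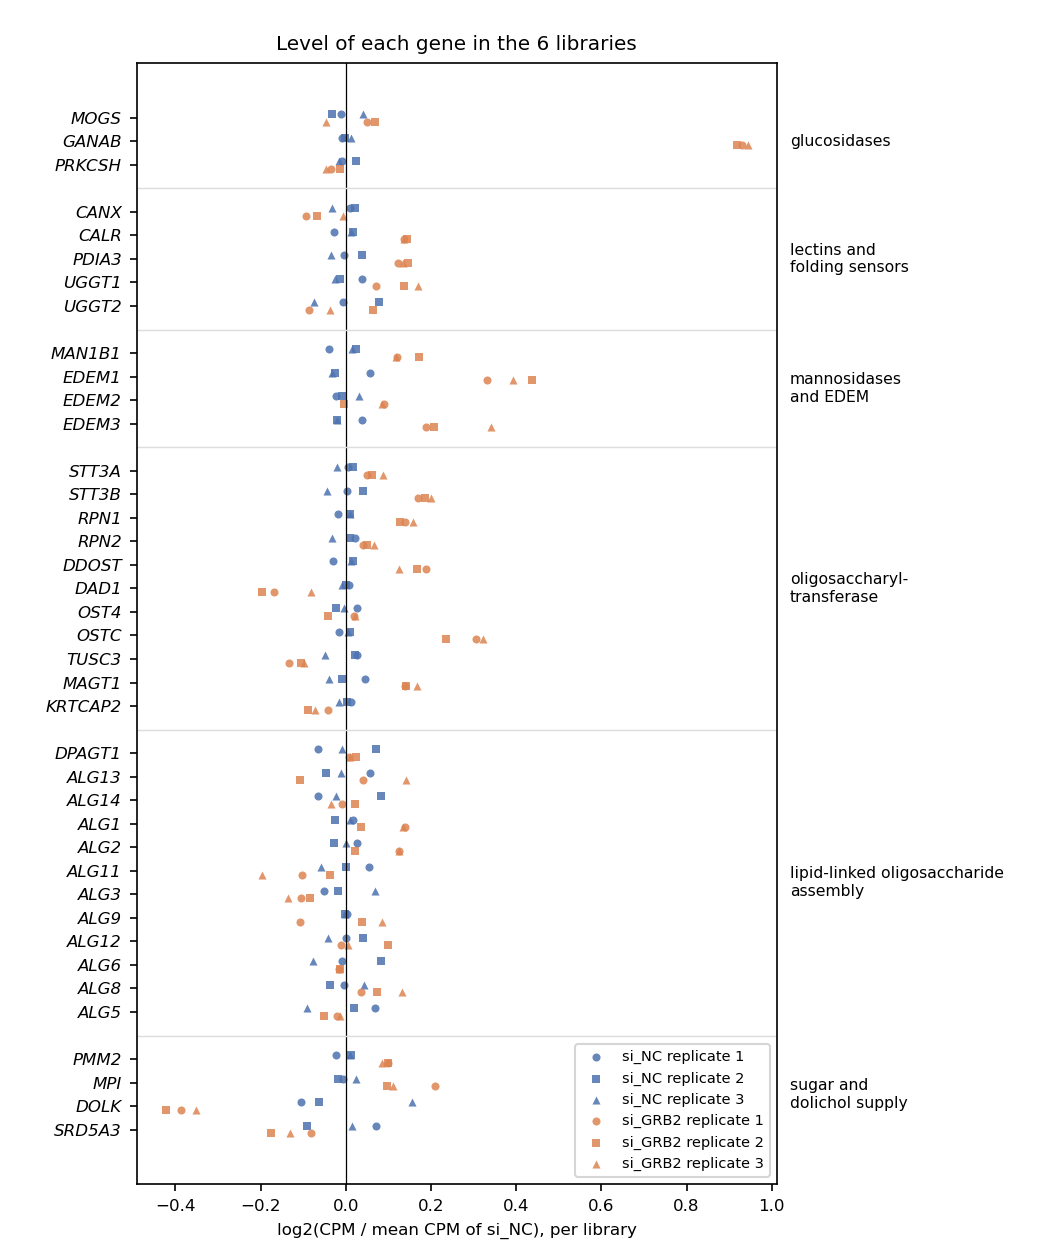
Each symbol is a library (blue si_NC, orange si_GRB2), placed by log2 of its CPM over the si_NC mean of that gene, with genes grouped by role. The si_GRB2 libraries of GANAB sit near 0.93, those of EDEM1, OSTC and EDEM3 sit clear of the controls, and those of most ALG genes lie among the si_NC libraries.

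None of the 12 genes of lipid-linked oligosaccharide assembly was called, against 20.5% of all tested genes. The median log2 fold change was 0.01, and the single values ran from −0.11 for ALG11 to 0.10 for ALG1. The 95% intervals of the 12 genes together span −0.23 to 0.18, or −14.7% to 13.7%. The first steps are made by DPAGT1, which starts the chain, and by ALG13 and ALG14, which form the second transferase. Their log2 fold changes were 0.01, 0.02 and −0.01, with overlapping groups in each. The ALG13 to ALG14 ratio did not separate the groups either (difference 0.03 on the log2 scale, exact two-sided permutation p = 0.8, n = 3 each).

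The mannosyltransferases that act next had log2 fold changes of 0.10 (ALG1), 0.09 (ALG2), −0.11 (ALG11) and −0.11 (ALG3), then 0.01 (ALG9) and 0.03 (ALG12). Of these, ALG3 came closest to a call, at 141.8, 145.2 and 154.1 CPM in si_NC and 136.6, 138.6 and 133.9 CPM in si_GRB2 (adjusted p = 0.0257, edgeR). ALG3 was called lower in the robust fit (adjusted p = 0.00861) and without si_NC replicate 1 (0.00769), both by edgeR. The glucosyltransferases ALG6 and ALG8, which add the glucoses that the glucosidases later remove, had log2 fold changes of −0.01 and 0.08, and ALG5, which makes their sugar donor, was at −0.03. Some of these genes share exon bases with a gene on the other strand. CRELD2 held 285% as many reads as ALG12, EEF2KMT 36.2% as many as ALG1, and C2CD2L 32.4% as many as DPAGT1. C2CD2L was called higher (log2 fold change 0.29). The libraries kept strand, but the strand setting of the counting is not given in the sources used here, so reads of such overlapping genes may be uncertain. Annotated copies of ALG1 held 1.27% as many reads as ALG1 itself.

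Of the 4 supply genes, DOLK fell and the others were not called, where 10.5% of all tested genes were called lower. DOLK encodes dolichol kinase, which makes dolichol phosphate, the carrier on which the oligosaccharide is built. It was at 23.3, 23.99 and 27.92 CPM in si_NC and 19.17, 18.7 and 19.65 CPM in si_GRB2. The si_GRB2 libraries were close together, whereas si_NC replicate 3 stood above the other controls. DOLK fell by 0.39 on the log2 scale (SE 0.07, adjusted p = 0.000339 by edgeR), and the change was −0.31 to −0.45 with each library left out in turn. SRD5A3, the reductase that makes dolichol from polyprenol, had a log2 fold change of −0.13 with overlapping groups (adjusted p = 0.0388 by edgeR). PMM2 and MPI make mannose phosphates for the sugar donors. PMM2 had a log2 fold change of 0.09 and MPI one of 0.14, with libraries of the groups that did not overlap and adjusted p of 0.0333 and 0.0235 (edgeR). On the other strand, CARHSP1 held 67.7% as many reads as PMM2 and fell (log2 fold change −0.35), and FAM219B held 69.4% as many as MPI (0.09, not called).

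Per length, the 39 transcripts differed widely in level. These levels depend on the gene lengths behind the FPKM, which are not given in the sources used here. Annotated exon bases ran from 600 for OST4 to 18576 for EDEM3, and transcripts made in these cells can be shorter. For example, CANX was at 946.2 CPM and RPN2 at 987.3 CPM in si_NC, but at 55.25 and 293.9 FPKM. The order below is thus an order of FPKM. In si_NC, RPN2 was highest at 293.9 ± 5.04 FPKM (SD, n = 3), followed by CALR at 209.5 ± 10.27, OST4 at 171.6 ± 5.64, DAD1 at 145.8 ± 4.47 and PDIA3 at 110.2 ± 3.14 FPKM. These 5 genes made up 60.3% of the summed FPKM of the 39. The lowest were ALG13 at 2.3, ALG14 at 2.21 and ALG11 at 1.3 FPKM. Of the 38 steps between neighbours in this order, 15 joined genes whose si_NC libraries overlapped, among them OSTC, PRKCSH and RPN1 at 48.83 to 49.73 FPKM and GANAB between ALG3 and EDEM2. GANAB moved from place 13 at 33.03 ± 1.43 FPKM in si_NC to place 7 at 64.88 ± 1.8 FPKM in si_GRB2 (SD, n = 3 each). By group mean it passed ALG3, STT3B, RPN1, PRKCSH, OSTC and CANX. Its si_GRB2 libraries (62.81 to 66.09 FPKM) overlapped those of OSTC (61.35 to 64.65 FPKM). RPN2, CALR, OST4, DAD1 and PDIA3 held the first 5 places in both groups.

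**Figure D4:**
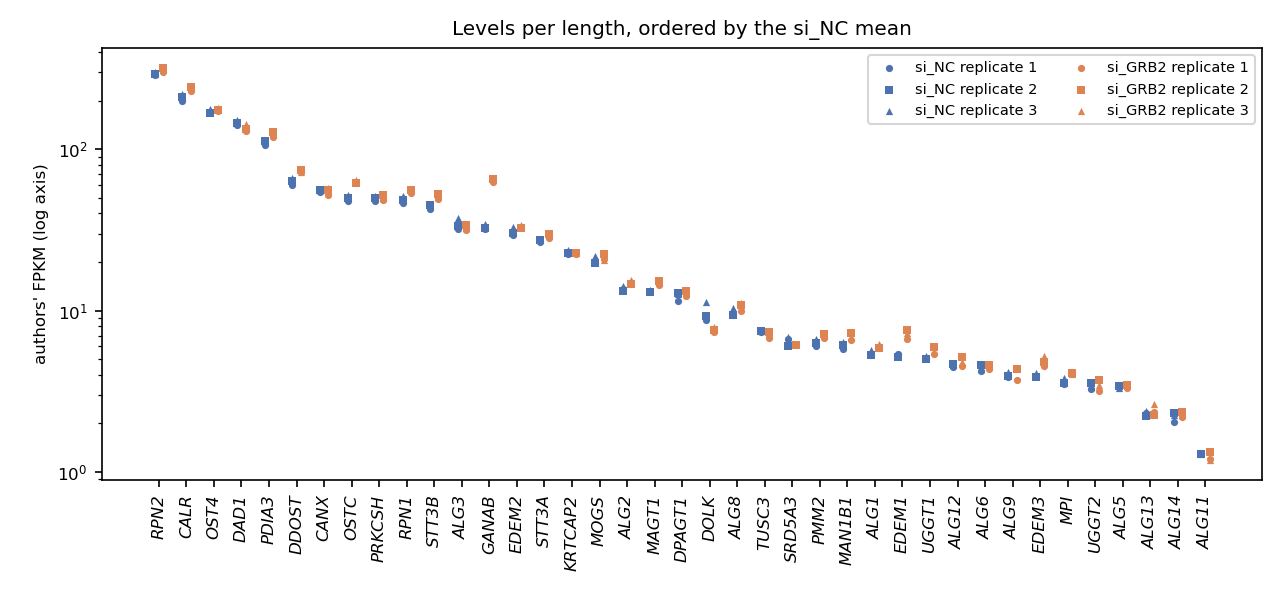
Points give the authors' FPKM of each gene in each library on a log axis (blue si_NC, orange si_GRB2), with genes ordered by the si_NC mean from RPN2 at 293.9 to ALG11 at 1.3. GANAB rises from 33.03 to 64.88, and for the other genes the orange and blue points lie close together.

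The remaining genes of the pathway were read from lists by function. The OST partners MLEC, a lectin that binds freshly transferred glycans, and TMEM258, an OST subunit, had log2 fold changes of 0.16 (called higher) and −0.13 (not called). MLEC lost its call without si_NC replicate 2 (adjusted p = 0.0176, edgeR). Of 17 further genes for dolichol, donor sugars and assembly, NUS1 and GFPT1 rose and DPM3 and DPM2 fell (11.8% in each direction, near the 9.96% and 10.5% of all tested genes), with a median of −0.03. NUS1, a subunit of the transferase that makes the dolichol chain, went from 47.36 ± 4.84 to 63.5 ± 1.74 CPM (SD, n = 3 each), a log2 fold change of 0.42. DOLK, which fell, acts further down the same route. GFPT1, the first enzyme of the hexosamine pathway, rose by 0.39 on the log2 scale. DPM3 and DPM2, the small subunits of dolichol phosphate mannose synthase, fell by 0.24 and 0.15, and the catalytic DPM1 was at 0.00. DPM3 lost its call without si_NC replicate 1, si_GRB2 replicate 1 or si_GRB2 replicate 2 (adjusted p from 0.0124 to 0.0145, edgeR). DPM2 lost its call when any library except si_GRB2 replicate 1 was left out (adjusted p from 0.0144 to 0.0601, edgeR). By DESeq2 neither was called (adjusted p = 0.0125 for DPM3 and 0.0242 for DPM2).

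Downstream of the EDEM proteins, 5 of 12 tested genes of ER-associated degradation were called higher (9.96% of all tested genes) and 0 lower (10.5%), with a median of 0.08. SEL1L and SYVN1, the scaffold and the ubiquitin ligase of the main degradation complex, rose by 0.26 and 0.23 on the log2 scale, and OS9, DERL1 and NGLY1 also rose. Of 19 ER chaperones and genes of the unfolded protein response, 9 were called higher and 0 lower, with a median of 0.14, beside the same 9.96% and 10.5% of all tested genes. The other 10 were not called, and 4 of the 19 had a negative log2 fold change. HSPA5, the chaperone BiP, was at 616.5 ± 14.42 CPM in si_NC and 708.2 ± 14.32 CPM in si_GRB2 (SD, n = 3 each; log2 fold change 0.20, adjusted p = 1.98e-05 by edgeR). XBP1, a transcription factor of this response, rose by 0.29 and DNAJB9, a co-chaperone of BiP, by 0.36. HSP90B1, another abundant ER chaperone, was not called (log2 fold change 0.09, adjusted p = 0.0133 by edgeR), but it was called higher by DESeq2 (adjusted p = 0.00122) and in the robust edgeR fit (0.00587). The genes ATF4 and DDIT3, factors of the PERK branch, had log2 fold changes of −0.03 and 0.10 and were not called. The rise of GANAB was larger than that of DNAJB9, which had the largest among the called genes of both lists.

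Past the ER, 2 of 13 tested genes of N-glycan processing in the Golgi were called higher and 2 lower (15.4% each), near the 9.96% and 10.5% of all tested genes, with a median of −0.04. ST6GAL1, which caps N-glycans with sialic acid, rose from 40.71 ± 2.72 to 59.88 ± 2.74 CPM (SD, n = 3 each; log2 fold change 0.56, adjusted p = 4.78e-07 by edgeR). MAN1A2, a Golgi mannosidase, rose by 0.18. MGAT1, which opens the path to hybrid and complex glycans, fell by 0.34 on the log2 scale, and B4GALT1, a galactosyltransferase, fell by 0.13. MAN1A2 lost its call without si_NC replicate 1, 2 or 3 or si_GRB2 replicate 1 (adjusted p from 0.0123 to 0.0157, edgeR). B4GALT1 lost its call when any library except si_NC replicate 2 was left out (adjusted p from 0.0108 to 0.037, edgeR).

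**Figure D5:**
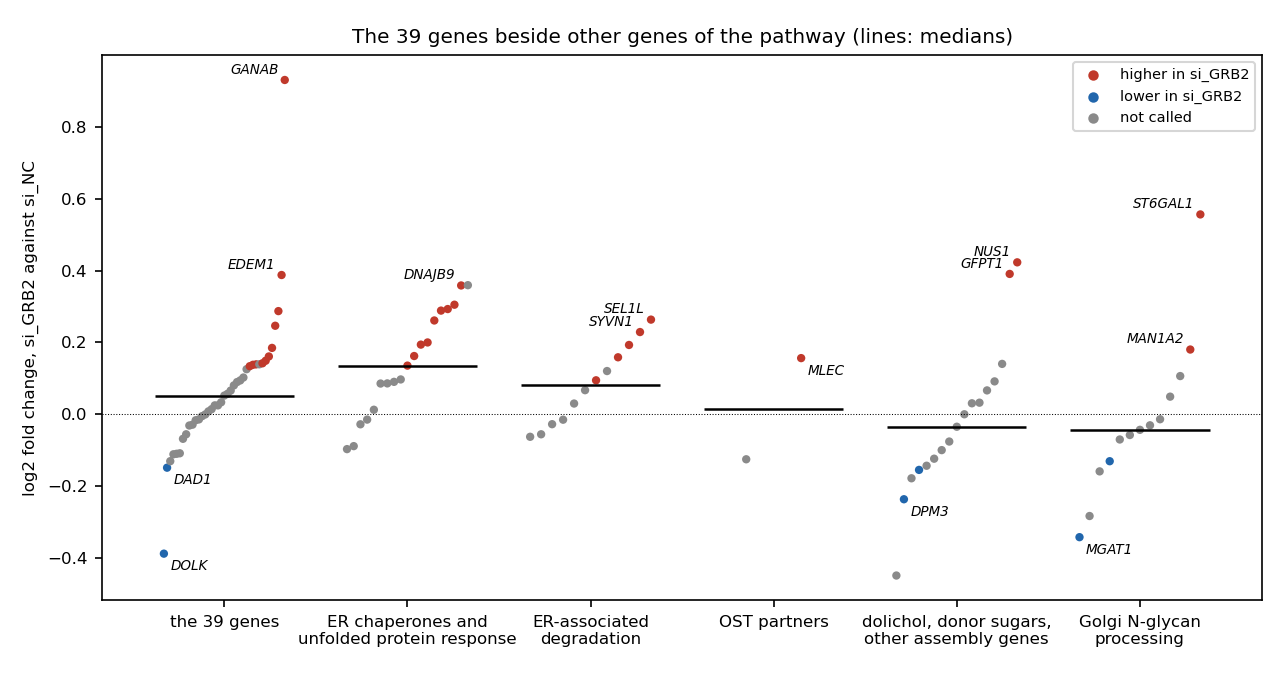
Each point is a gene, placed by its log2 fold change in si_GRB2 against si_NC and coloured by call (red higher, blue lower, grey not called), in columns for the 39 genes and 5 lists of other pathway genes, with black lines at the medians. The medians run from 0.14 for ER chaperones and the unfolded protein response, with no gene called lower, to −0.04 for Golgi processing, and GANAB at 0.93 lies above every other point.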

How the data were processed

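Messenger RNA of SK-BR-3 cells (3 si_NC and 3 si_GRB2 libraries) was captured on beads and made into dUTP strand-marked libraries, per the labels. The authors trimmed adaptors and low-quality bases with the FASTX-Toolkit, aligned reads to GRCh38 with HISAT2 and used uniquely mapped reads to obtain the deposited counts per gene. The FPKM values were computed by the authors per gene length and library size. The counting tool, its strand setting and the annotation release are not given in the sources used here.

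Counts were tested with edgeR 4.0.16 in R 4.3.3 (TMM factors, filterByExpr, quasi-likelihood test, Benjamini-Hochberg over 15801 genes), tested beforehand on simulated data. The study used DESeq2, which is an alternative here. The common coefficient of variation between libraries was 3.75%. Printed CPM use TMM-scaled library sizes, and an SE is the log2 fold change divided by the square root of the F value. Ratios of partner genes used counts plus 0.5 and the exact two-sided permutation test of 6 libraries. The 39 genes and the lists of other pathway genes were chosen with earlier results of these data known. All 39 genes are named, and from each other list up to 2 called genes with the largest change in each direction, plus HSPA5, HSP90B1, XBP1, ATF4 and DDIT3. TMEM258, DPM1, OS9, DERL1, NGLY1 and the genes that overlap or neighbour a gene of the 39 were named after their values were seen. Gene positions come from GENCODE 44, which held all 39 genes, 32 in the same version. Alternatives covered scaling, DESeq2, filters, the p limit, a robust fit, limma 3.58.1 on FPKM, the replicate block and each library left out.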

Additional observations from a re-analysis of the deposited data

How the results depend on the processing

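The log2 fold change of GANAB stayed between 0.92 and 0.97 and was called in all 16 alternatives, and that of GRB2 stayed between −2.18 and −1.91. The count of DEGs among the 39 genes was 1 throughout. The other counts moved most with limma on FPKM, and the cause was not tested. With 1 added to FPKM, 245 genes of the whole table were called (111 higher, 134 lower), with 0.1 added 281 (130 and 151), and among genes with a mean FPKM of at least 1, 1220 (712 and 508), against 3236 (1573 and 1663) by edgeR. Of the 39 genes these fits called 1, 1 and 4 higher and 0 lower. At an adjusted p of 0.05, 2396 of the 15801 tested genes were called higher and 2442 lower, and 14 of the 39 were higher and 5 lower. With each library left out, 9 to 10 of the 39 were called higher and 1 to 3 lower. Of all genes 2307 to 2922 were then called, 1050 to 1341 higher and 1231 to 1581 lower. Same-number correlations of deviations from the group means were 0.232, −0.095 and 0.08. The libraries numbered 1 correlated best with each other, but not every library did so with its own number. Deviations cancel out within a group by construction, so these values are not independent and cannot exclude a pairing. With the replicate block, 3390 genes were called (1654 higher, 1736 lower), and of the 39 genes 10 were called higher and 2 lower. MAN1B1 lost its call there (adjusted p = 0.0118, edgeR), as did DPM2 (0.0141) and B4GALT1 (0.011) among the other genes named. The 6 ratios had the same differences under the block, where an exact sign-flip test cannot go below p = 0.25.

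Only values near 0 that were never called changed sign. OST4 became 0.0007 with DESeq2 size factors and 0.0005 with DESeq2. With limma on FPKM plus 1 (with or without the FPKM minimum) and plus 0.1, PRKCSH became 0.0122 and 0.0125, UGGT2 0.0193 and 0.0238, OST4 0.0434 and 0.0436, ALG14 0.0258 and 0.0361, ALG6 0.0242 and 0.0291, ALG5 0.0142 and 0.0178, and ATF4 0.0158 and 0.016. With each library left out, OST4 ran from −0.0181 to 0.0205, UGGT2 from −0.0603 to 0.0165, DPAGT1 from −0.0251 to 0.0437, ALG13 from −0.0351 to 0.0904, ALG14 from −0.0439 to 0.0298, ALG6 from −0.0581 to 0.0207, ALG9 from −0.0316 to 0.0624 and ALG12 from −0.0017 to 0.0552. The difference in the ALG13 to ALG14 ratio ran from −0.042 to 0.1107, and was −0.0349 without si_NC replicate 2. With 3 libraries a group, the 95% intervals of the 26 uncalled genes reached from −14.7% to 17.5%.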
